A study of Mus musculus with 13 samples.

Results

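The coding single-nucleotide variants (SNVs) described here were the deposited SNV calls on chromosomes 1 to 19 that were annotated as exonic, had at least 10 reads and lay outside segmental duplications. They comprised 502 distinct alleles, counted as 1809 calls over 7 libraries, of 84383 distinct SNVs and 294548 calls in all. Of the 502 alleles, 241 were missense, 10 gained a stop codon, 223 were synonymous and 1 lost a stop codon. The other 27 had no assigned class, namely 20 in Muc6, 5 in Peg10 and 2 in Hoxa13. Missense and stop-gaining alleles are called protein-changing below. A further 356 exonic alleles lay in segmental duplications and 6 never reached 10 reads, and neither were counted.

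A synonymous change swaps a codon for another that encodes the same amino acid, mostly at the third base of the codon. A missense change replaces the amino acid, and a stop-gaining change ends the protein early. Because most random base changes in a reading frame alter the protein, the number of protein-changing over synonymous variants is widely used to describe a set of coding variants. Inherited variants that have passed through many generations carry relatively more synonymous changes than newly acquired ones.

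Whole-genome sequencing was done on GFP+ bone marrow cells of C57BL/6 mice aged 8 to 10 weeks, with 1 library for each group. The 6 leukaemia groups arose under retroviral expression of the transcription factor N-Myc, and the control carried an empty construct. B-ALL (B-cell acute lymphoblastic leukaemia) was sorted as B220+, T-ALL (its T-cell counterpart) as CD3+ and AML (acute myeloid leukaemia) as Mac1+Gr1+. AUL (acute undifferentiated leukaemia) lacked these 4 surface markers. The mixed phenotype acute leukaemia gave a myeloid fraction, M-MPAL (Mac1/Gr1+B220-CD3/4/8-), and a T-lymphoid fraction, T-MPAL (Mac1/Gr1-B220-CD3/4/8+). The empty control was sorted on GFP alone. The promoter that drove N-Myc, the number of animals behind each library and any matched normal DNA are not given in the labels, and DNA variants cannot check the sorted cell types against their surface markers. With 1 library a group no difference has a replicate check and no test was made. All intervals below are exact 95% intervals that cover counting error only and take SNVs as independent. Reads carry no molecular identifiers. Inherited and acquired variants cannot be told apart.

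B-ALL had 265 coding calls, T-ALL 321, AML 256, AUL 262, T-MPAL 249, M-MPAL 239 and the empty control 217. The depth rule touched few of them: 4 calls had exactly 10 reads (0 protein-changing, 3 synonymous) and 10 had 11 reads (4 and 3). Just under it, 5 calls had 9 reads (2 protein-changing, 2 synonymous) and 5 had 8 reads (3 and 1).

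Only a single member lay inside the annotated promoter window of its gene, so its sequence is the one that can be shown. It was a missense change in exon 1 of Slc35e1, a gene of the solute carrier family, at chr8:72492571. The reading frame opens on the minus strand at chr8:72492565-72492586 (RefSeq, GRCm38.p6), given 5′ to 3′ with the changed base in capitals.

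Slc35e1: atggcggcggcggcaAccgcgg

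The A at base 16 of the reading frame became G, which turns codon 6 and gives T6A. All reads carried it in all 7 libraries: 17 of 17 in B-ALL, 23 of 23 in T-ALL, 19 of 19 in both AML and AUL, 25 of 25 in T-MPAL, 34 of 34 in M-MPAL and 34 of 34 in the empty control. It is thus an allele that differs from the reference genome in every library, the simplest kind of member.

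T-ALL had the lowest ratio of protein-changing to synonymous changes, and synonymous ones were the more numerous there. Over all coding calls, the ratio of protein-changing to synonymous SNVs was 0.799 in T-ALL (131 against 164, interval 0.630 to 1.01). AUL had the highest ratio, 1.46 (1.12 to 1.92). B-ALL had 1.26, AML 1.19, T-MPAL 1.31, M-MPAL 1.28 and the empty control 1.31 (0.984 to 1.76). The T-ALL and AUL intervals did not overlap, while the T-ALL and control intervals did. The side of 1 depended on the filter: T-ALL had 275 against 215 (1.28) with segmental duplications counted and 95 against 95 at a quality of at least 100. Outside regions gained in any copy number table, B-ALL (0.769) and AML (0.789) were below 1 as well, with T-ALL at 0.404. T-ALL had the lowest ratio of the 7 libraries under each of these settings.

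The contrast was sharper among private alleles, those present in 1 SNV table at any depth and absent from the other 6. T-ALL had 16 protein-changing and 67 synonymous private SNVs, a ratio of 0.239 (0.129 to 0.417). AUL had 34 and 9, a ratio of 3.78 (1.77 to 8.96). T-MPAL had 14 and 3 (4.67, 1.30 to 25.3), M-MPAL 10 and 6 (1.67, 0.549 to 5.58), B-ALL 9 and 5 (1.80, 0.542 to 6.84) and AML 9 and 6 (1.50, 0.477 to 5.12). The empty control had 9 and 2 (4.50, 0.931 to 42.8). The T-ALL interval ended below the start of each of the other 6 intervals. These intervals take SNVs as independent, although 42 of the 67 synonymous T-ALL SNVs had another coding SNV within 100 bases. Among the other leukaemias and the control the counts were small and all 6 intervals overlapped. Together these 6 libraries held 85 protein-changing and 31 synonymous private SNVs, a ratio of 2.74 (1.80 to 4.28).

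**Figure D1:**
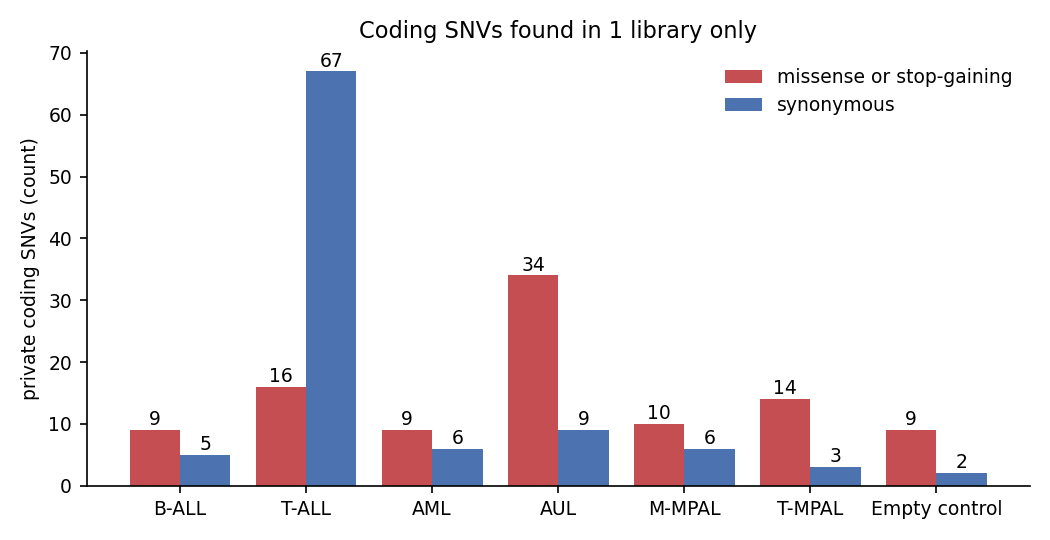
Number of private coding SNVs (vertical axis) in each library, protein-changing in red and synonymous in blue, 1 library per group. T-ALL alone holds 67 synonymous SNVs against 16 protein-changing ones, while AUL holds 9 against 34 and the empty control 2 against 9.

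The T-ALL excess of synonymous changes held under some filters and narrowed under others. The private ratio was 0.224 at a depth of at least 20 reads and 0.209 outside regions gained in all 6 complete copy number tables. Counting each gene once per class gave 14 against 33 (0.424, 0.210 to 0.815). That interval overlapped those of B-ALL (from 0.445), M-MPAL (from 0.549) and AML (from 0.628). With no other coding SNV within 100 bases the ratio was 0.28 (0.102 to 0.666). This interval overlapped those of B-ALL (from 0.305), AML (from 0.533) and M-MPAL (from 0.623). Stringent calls (quality from 100 up, 4 or more alternative reads, alternative read share from 0.2 up) gave 7 against 19. When stringent calls were also required to have no other coding SNV within 100 bases and no dbSNP entry, a setting chosen after seeing the data, 5 protein-changing and 3 synonymous SNVs were left and the ratio turned to 1.67 (0.324 to 10.7). The stringent private counts elsewhere were 26 against 9 in AUL, 7 against 4 in M-MPAL, 7 against 3 in T-MPAL, 2 against 0 in B-ALL, 5 against 0 in AML and 5 against 0 in the empty control.

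**Figure D2:**
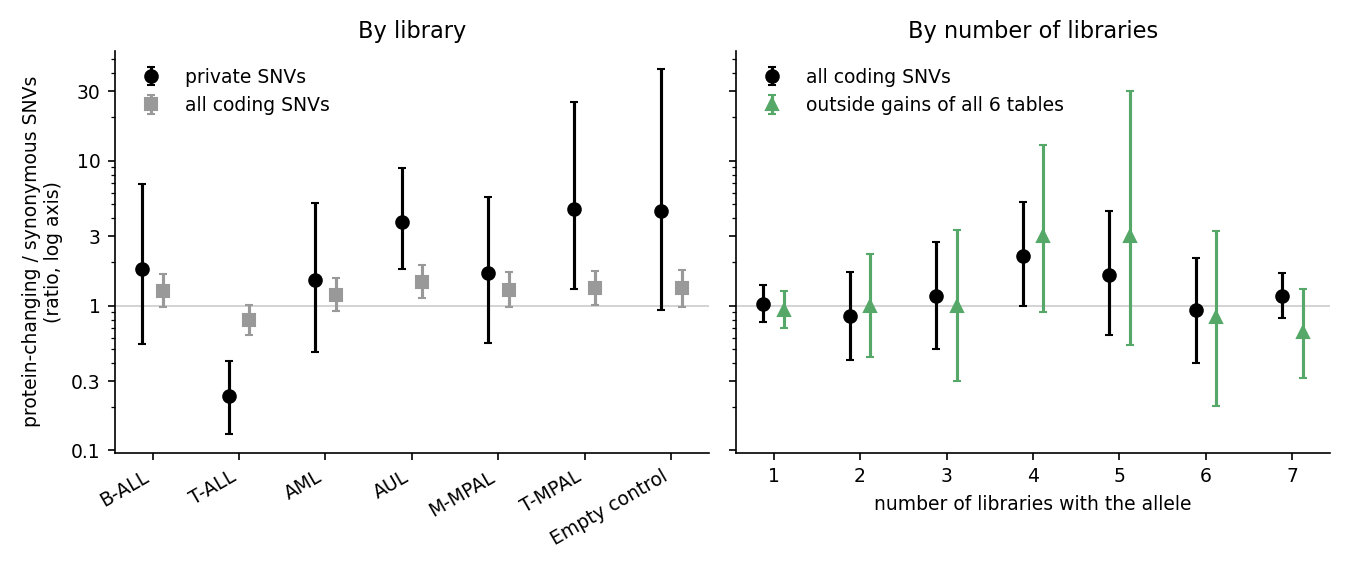
Ratio of protein-changing to synonymous SNVs on a log axis with exact 95% intervals, by library (left; circles private, squares all coding SNVs) and by the number of libraries that hold the allele (right; circles all, triangles outside regions gained in all 6 complete copy number tables). The T-ALL private ratio of 0.239 lies apart from the other libraries, while in the right panel the circles lie between 0.850 and 2.20 and the triangles between 0.652 and 3.

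The 67 synonymous SNVs private to T-ALL lay in 33 genes, and 12 genes with at least 2 of them held 46. Actb, which encodes cytoplasmic beta-actin, had 8 in exons 4, 5 and 6, all stringent, with 12 to 42 alternative reads at depths of 44 to 105 and the most at I212I (42 of 105). Thbs1, which encodes the secreted glycoprotein thrombospondin 1, had 7 synonymous and 3 missense SNVs in exons 3, 18 and 19, with alternative read shares of 0.333 to 0.422. Its 2 strongest calls lay 2 bases apart in exon 18, R959R with 27 of 65 reads and the missense Q960R with 27 of 64. Serpinh1, whose product is a collagen chaperone, had 6 with shares of 0.229 to 0.412. Tuba1c, an alpha-tubulin gene, had 5 within exon 4 with shares of 0.200 to 0.259. Ctsl (the lysosomal protease cathepsin L) and Ddx5 (an RNA helicase) each had 3 synonymous SNVs and 1 missense SNV. Myh9 (non-muscle myosin heavy chain) and Rpl32l (a gene related to the ribosomal protein L32) each had 3, and Ahnak, Ccdc80, Lgals3 and Tagln each had 2. Genes with a single one included Col1a1 and Col1a2 (type I collagen chains), Eef2 (translation elongation factor), Hspa5 and P4hb (endoplasmic reticulum folding proteins), Pfn1 (profilin) and Junb, Atf4 and Cebpb (transcription factors).

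**Figure D3:**
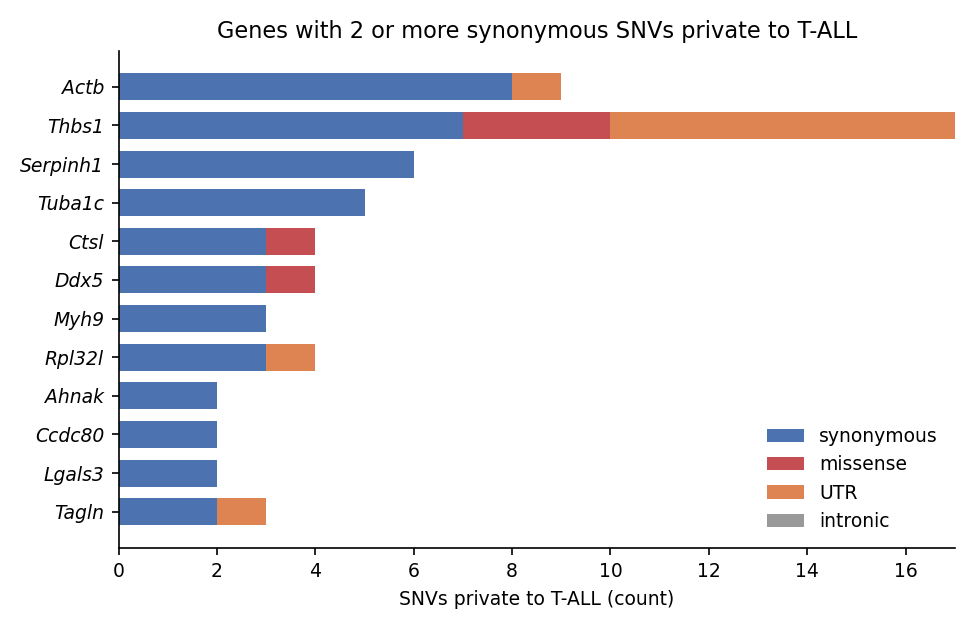
SNVs private to T-ALL (horizontal axis, count) in the 12 genes with at least 2 synonymous ones, split into synonymous, missense, UTR and intronic. Thbs1 has 7 synonymous, 3 missense and 7 UTR SNVs, Actb has 8 synonymous and 1 UTR SNV, and none of the 12 genes has an intronic one.

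All 67 changed the third base of a codon, and 42 had another coding SNV within 100 bases. In these 33 genes T-ALL had 74 private coding SNVs, 28 in untranslated regions (UTRs) and 1 in an intron. Whether these reads came from the genomic DNA of the sorted cells or from another template, such as transcripts or DNA of other origin, was not tested, and this bears on every T-ALL ratio given here. The same genes held no private coding SNV in the other 6 libraries. Outside coding sequence AML had 1 UTR and 2 intronic private SNVs there, T-MPAL had 1 intronic one, and B-ALL, AUL, M-MPAL and the empty control had none. The genes were chosen for holding a synonymous T-ALL SNV, so the coding counts are a description.

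The alternative reads were a minority at most of these sites. The median share was 0.271 for the 67 synonymous SNVs, 56 of 67 were below 0.4, and none was called homozygous. Median depth was 38 reads and median mapping quality 43. Median caller quality was 66, against 153 for the private synonymous SNVs of the other 6 libraries together. For private protein-changing SNVs it was 66.5 in T-ALL against 123 in the other 6. The 5 highest shares belonged to Mdc1 (a DNA damage checkpoint mediator) with 19 of 30 reads, Kif17 (a kinesin motor) with 16 of 30, Rpl37rt with 31 of 62, Rpl32l with 22 of 44 and Hspa12a with 10 of 22, picked out after their values were seen.

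Protein-changing private SNVs of T-ALL fell partly in the same genes: 7 of 16 lay in the 33 genes and 9 elsewhere. Those with the most alternative reads under the stringent rule were Thbs1 Q960R, Abcc2 R1077W (19 of 38 reads, an organic anion exporter) and Podnl1 L380V (17 of 37). Other stringent calls, named after their values were seen, were Kdm4a S1047L (16 of 28, a histone demethylase), Ganc D444N (15 of 33, a neutral glucosidase) and Aoc3 R566L (7 of 29, an amine oxidase).

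Private SNVs of T-ALL were also frequent in mature transcripts as a whole, coding sequence included. Coding sequence, UTRs and exons of non-coding RNAs together took 7.14% of the 3179 private SNVs in T-ALL (6.27 to 8.09%). They took only 1.50% in AUL, 2.00% in AML, 1.55% in B-ALL, 1.71% in T-MPAL, 1.80% in M-MPAL and 1.93% in the empty control (1.28 to 2.80%). Per 100 private intronic SNVs there were 9.98 private coding SNVs in T-ALL. The other leukaemias had 2.38 to 3.75 and the empty control 2.52. The T-ALL share thus lay above the interval of each other library. Private coding sites had a median depth of 38 reads in T-ALL against 20 at its private intronic sites. B-ALL had 30 against 15 and AML 28 against 15, a like gap, while AUL had 23 against 22, M-MPAL 28 against 23, T-MPAL 27 against 21 and the empty control 27 against 21. The part that depth plays in the T-ALL excess was not tested.

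**Figure D4:**
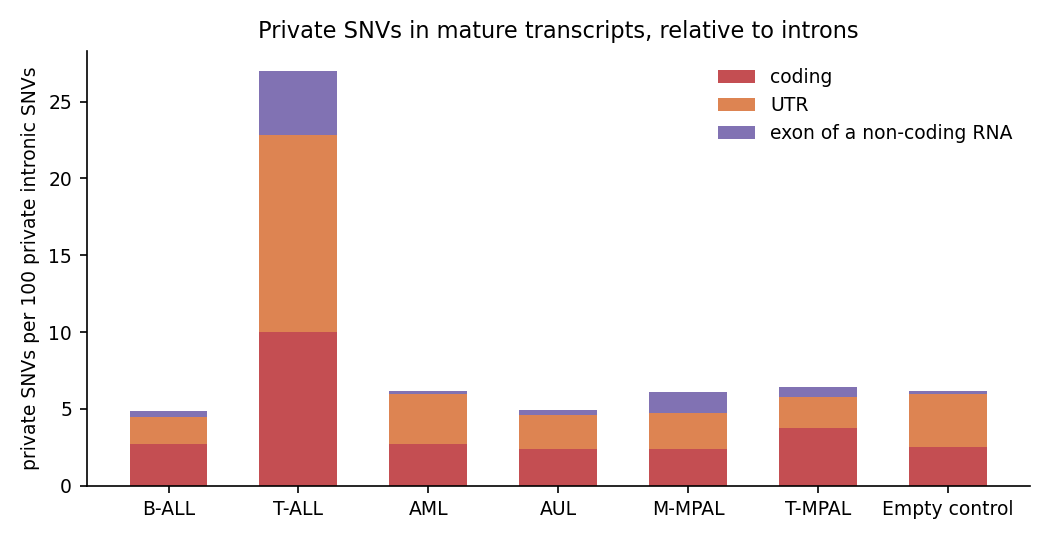
Private SNVs in coding sequence, UTRs and exons of non-coding RNAs per 100 private intronic SNVs, stacked, for each library. T-ALL reaches 27.0 and the other libraries lie between 4.84 and 6.40, with the empty control at 6.19.

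AUL had the most private protein-changing SNVs, 34 against 9 in the empty control, and it also had the most private SNVs of any location, 6055 against 1399. The median alternative read share was 0.396 for its protein-changing and 0.545 for its synonymous private SNVs (n = 34 and 9), against 0.259 and 0.147 in the empty control (n = 9 and 2). Among stringent SNVs outside the Olfr, Vmn, Zfp, Gm and Rik genes, the largest numbers of alternative reads belonged to Dhx38 P1115H (25 of 35, an RNA helicase of splicing), Ppp2r2c F73C (16 of 33, a regulatory subunit of protein phosphatase 2A) and Lce1a2 S122N (15 of 33, a cornified envelope protein). Among synonymous ones they were Galnt6 I361I (28 of 42), Elavl2 Y142Y (14 of 22) and Bpifc L258L (12 of 22). Scamp5, a secretory carrier membrane protein, had neighbouring changes in codon 109, F109F with 10 of 24 reads and F109Y with 9 of 21. Each SNV was classed on its own, and whether these changes lay on the same reads was not checked.

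The MPAL fractions differed from AUL in number but had the same order of median shares, on few SNVs. Protein-changing private SNVs had a median share of 0.290 in T-MPAL (n = 14) and 0.309 in M-MPAL (n = 10). Synonymous ones had 0.607 in T-MPAL (n = 3) and 0.469 in M-MPAL (n = 6). T-MPAL carried Cd180 S163Y (12 of 26 reads, a Toll-like receptor homologue of B cells), Tulp3 L21P (10 of 27) and Dnajc17 R287C (9 of 26), and the synonymous Chd8 P612P (17 of 28) and Gpa33 T66T (17 of 28). M-MPAL carried Smarca4 E535K (25 of 53), Abcd2 A83T (17 of 50, a peroxisomal transporter) and Ttc16 D792N (12 of 27). Its synonymous ones were Mroh2a P335P (80 of 120), Lrp1b H2103H (14 of 29) and Ankrd12 L397L (10 of 22). P335P had a mapping quality of 32 and a dbSNP entry, and lay in a region gained in all 6 complete copy number tables. Outside such regions the M-MPAL synonymous median was 0.455 (n = 5).

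The remaining libraries had few well-covered private changes. B-ALL had Fmo6 Q183H (9 of 24) and Trp53 R210C (8 of 27), with no stringent synonymous SNV. AML had Rgsl1 D581N (14 of 23), Smarca4 D1225H (13 of 28) and Pcdhb16 A678S (12 of 27). The empty control had Cyp2b10 A87D (10 of 44, a cytochrome P450), Eya2 A11T (9 of 33) and Slc44a3 A227T (7 of 23), and its 2 synonymous private SNVs, in Snapc4 and Bspry, each had 5 alternative reads.

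**Figure D5:**
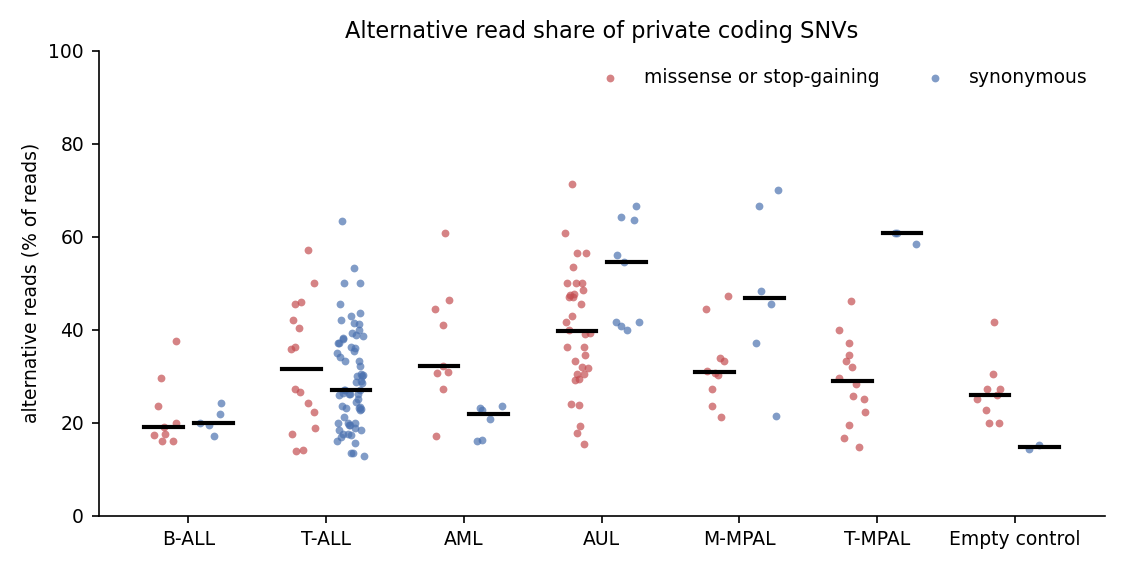
Alternative reads as a percentage of reads at each private coding SNV, by library, protein-changing in red and synonymous in blue, with the median of each as a black line and points spread sideways for visibility. In T-ALL the synonymous points cluster under 40%, in AUL both classes lie higher, and the empty control has 2 synonymous points near 15%.

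Stop-gaining SNVs were rare, 10 of 502 alleles. Of these, 4 lay in Mroh2a, in the chromosome 1 stretch described below. They included Q1437X in all 7 libraries and W657X private to T-ALL (25 of 94 reads, not a stringent call). Among the stringent stop-gaining SNVs found in 1 library, AUL held S398X in Abcc12, an ABC transporter (6 of 15 reads). It also held Y35X in the olfactory receptor gene Olfr136 (8 of 17). M-MPAL held Q1643X in Setd2 (10 of 33), which encodes the histone H3 lysine 36 methyltransferase, and G818X in Lepr (7 of 21), the leptin receptor. The empty control held S80X in Dhrs7, a short-chain dehydrogenase (7 of 27). Q183X of Pxmp4, a peroxisomal membrane protein, was in 5 libraries, with 25 of 27 reads in AUL, 6 of 14 in T-ALL, 15 of 33 in T-MPAL, 16 of 28 in M-MPAL and 7 of 31 in the empty control. No call of it was made in B-ALL or AML.

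Of 76 leukaemia genes on a list chosen with earlier results of these data known, 4 had private coding SNVs, and all 5 of these were protein-changing, beside 85 protein-changing and 31 synonymous private SNVs (73.3% protein-changing) over all genes in the 6 libraries other than T-ALL. Over all genes and libraries, 147 genes held private coding SNVs. The total number of genes surveyed was not counted, so whether list genes were hit more often than others was not tested. None of the 5 list SNVs was in T-ALL. They were R210C of the tumour suppressor Trp53 in B-ALL (8 of 27 reads), N564D of Pik3r1, the regulatory subunit of phosphoinositide 3-kinase, in AUL (7 of 22), Q1643X of Setd2 in M-MPAL, and E535K in M-MPAL (25 of 53) and D1225H in AML (13 of 28) of Smarca4, an ATPase of the SWI/SNF chromatin remodeller. Smarca4 was thus changed at 2 different sites in 2 libraries, each near an even split of reads. None of the 5 had a dbSNP entry.

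Mycn, the gene that encodes N-Myc, was the only list gene with coding SNVs in 2 to 6 libraries. It had 3 synonymous SNVs in exons 2 and 3 on chromosome 12, all in dbSNP and all found in both MPAL fractions and nowhere else. Q390Q had 28 of 57 reads in T-MPAL and 8 of 37 in M-MPAL. G307G had 12 of 33 in T-MPAL and 8 of 33 in M-MPAL, and R124R had 28 of 60 in T-MPAL and 13 of 39 in M-MPAL. The share was higher in T-MPAL at all 3 sites. Reads from the viral N-Myc construct and from the Mycn gene cannot be told apart in these counts.

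Alleles held by several libraries showed how class varied with sharing. Alleles in 1 library numbered 101 protein-changing and 98 synonymous (1.03, 0.773 to 1.37), and with sharing counted anew among the other 6 libraries the ratio was 2.24 without T-ALL (1.51 to 3.37) and 0.767 without AUL (0.552 to 1.06), 2 intervals that did not overlap. In 2, 3, 4, 5 and 6 libraries the ratios were 0.850, 1.17, 2.20, 1.63 and 0.929. In all 7 there were 71 protein-changing and 61 synonymous alleles (1.16, 0.815 to 1.67). The intervals for alleles in 1 to 7 libraries, with all libraries counted, overlapped. The share listed in dbSNP was 18.9% for private alleles (13.7 to 25.0%), 53.5% for those in 2 to 6 libraries (45.4 to 61.5%) and 81.9% for those in all 7 (74.7 to 87.9%). Private SNVs were least often in dbSNP in AUL, 4.55% (2 of 44), against 9.09% in the empty control (1 of 11), and most often in B-ALL, 71.4% (10 of 14).

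A short stretch of chromosome 1 supplied 33.7% of all members. The 169 alleles of Mroh2a, Hjurp and the Ugt1a genes, which encode enzymes that join glucuronic acid to bilirubin and drugs, lay within 65422 bases between 88212021 and 88277442 (mm10). This group was set by gene names after their counts were seen. It held 98 protein-changing and 71 synonymous alleles (1.38, 1.01 to 1.90), 91 of the 169 were in all 7 libraries, and 84.6% were in dbSNP. The median depth there was 135 to 150 reads in the leukaemia libraries and 182 in the empty control. The copy number tables gave it 10 to 13 copies in 5 leukaemia libraries and 12 in the empty control, where 2 is normal. The AUL copy number table ended early and was not used here.

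Without that stretch the order of the libraries was kept at both ends. The ratio was 0.486 in T-ALL (0.343 to 0.681), 1.58 in AUL (1.04 to 2.40), 1.09 in AML, 1.10 in B-ALL, 1.34 in T-MPAL, 1.32 in M-MPAL and 1.24 in the empty control (0.789 to 1.95). The T-ALL interval then ended below the control interval. Outside all regions gained in each of the 6 complete tables, alleles in all 7 libraries numbered 15 protein-changing and 23 synonymous (0.652, 0.316 to 1.30).

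Of the 144 alleles in all 7 libraries, 16 were homozygous in every passing call, 124 heterozygous in every one and 4 mixed. The homozygous ones counted 9 protein-changing, 6 synonymous and 1 unclassified allele, and 14 of 16 were in dbSNP. They included I475V of Sema3a (a guidance cue for axons), G396A of Otop1 (a proton channel), V372M of Ror2 (a receptor of Wnt5a), V86L of Hebp1 (a haem-binding protein), P448T of Dmbt1, L229P of Stx11 (a syntaxin), S300F of Mtus2 and T6A of Slc35e1, with only alternative reads in all 7 libraries. The heterozygous ones counted 61 protein-changing and 52 synonymous alleles (1.17, 0.797 to 1.73). Outside the regions gained in all 6 complete tables, 34 of these 124 were left, with 7 protein-changing and 16 synonymous (0.438, 0.152 to 1.12).

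Counts of coding alleles found in exactly 2 libraries differed between pairs. Pair counts over all SNVs are not given here, so whether coding SNVs differ from the rest in this was not tested. Outside the regions gained in all tables, M-MPAL and T-MPAL shared 11 alleles that no other library had, 7 protein-changing and 4 synonymous. Of these 4 synonymous alleles, 3 were the Mycn SNVs given above, whose reads cannot be told apart from those of the viral construct. B-ALL and AML shared 8 alleles, 5 protein-changing and 3 synonymous. B-ALL with T-MPAL and T-ALL with AML shared 2 each. The MPAL pair had Csmd1 D742Y (10 of 21 T-MPAL reads and 16 of 27 M-MPAL reads), Ttpa R32K (15 of 28 and 13 of 24) and Pdhx G226D (8 of 14 and 14 of 26). Ttpa encodes the vitamin E transfer protein and Pdhx a subunit of pyruvate dehydrogenase. B-ALL and AML had Amz1 E78Q (11 of 16 reads in B-ALL, 36 of 38 in AML) and Krtap15 R78W (16 of 39 and 18 of 40), and the synonymous Itpr2 L2266L (12 of 29 and 6 of 25), Hist1h4c R68R (12 of 48 and 7 of 34) and Atp6v0a1 D273D (8 of 20 and 7 of 27). Inside the chromosome 1 stretch the MPAL pair had the synonymous Mroh2a N714N (92 of 122 and 76 of 112) and D715D (86 of 117 and 76 of 110) and, at shares of 22.5% and 24.6%, Ugt1a1 V212V, and B-ALL and AML had Mroh2a R376H (22 of 144 and 21 of 151). T-ALL and the empty control shared 3 alleles, all synonymous and none in dbSNP: Bicd2 R23R with 22 of 24 reads in T-ALL and 24 of 37 in the control, Adcy3 G33G with 16 of 35 and 5 of 27, and Erc2 T112T with 14 of 27 and 6 of 28. These 3 were named after their values were seen.

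Some alleles in 3 to 6 libraries moved between partial and complete alternative reads. Among 13 of them (7 protein-changing, 6 synonymous), picked after their values were seen for a median mapping quality of at least 45 and a stringent call, R647Q of Cdc42bpb, a kinase that acts below Cdc42, had 40 of 40 T-MPAL reads and 41 of 41 M-MPAL reads, 31 of 35 in B-ALL, 28 of 29 in AML and 22 of 43 in T-ALL, against 19 of 36 in the empty control. A193A of the ubiquitin ligase gene Traip had 34 of 34 T-MPAL reads and 38 of 38 M-MPAL reads, 12 of 30 in B-ALL, 17 of 37 in AML and 20 of 43 in AUL, against 9 of 39 in the empty control. L2305R of Cntrl, a centriole protein, had 18 of 20 in AUL, 13 of 30 in T-ALL, 14 of 39 in T-MPAL and 18 of 34 in M-MPAL, against 21 of 30 in the empty control. Both MPAL fractions were at 100% for Traip and Cdc42bpb, and AUL was at 90.0% for Cntrl.

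Histone genes, a set chosen after the values were seen, held 16 alleles, 14 synonymous and 2 missense, with 14 in dbSNP. B-ALL had 10 of them, T-ALL 9, AML 6 and AUL 1, and M-MPAL, T-MPAL and the empty control had none. An example is K96K of Hist3h2a, with 6 of 28 reads in B-ALL, 6 of 51 in T-ALL and 4 of 29 in AML. Its caller quality was 102 in B-ALL, 22.1 in T-ALL and 27.7 in AML, and only the B-ALL call was stringent. T97T of Hist1h4k had 10 of 41 in B-ALL, 7 of 38 in T-ALL and 6 of 35 in AML. The libraries without them were the 3 made from 1000000 cells and those with them the 4 made from 2000000 cells, although AUL, with 2000000 cells, had only 1. Cell number, any difference in library preparation and group cannot be told apart.

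The base changes of coding and non-coding private SNVs were set side by side in each library. C-to-T changes (with G-to-A counted alike) made up 63.6% of private coding SNVs in AUL against 50.7% of its private intronic and intergenic ones, 48.8% against 25.5% in T-ALL and 57.1% against 21.6% in B-ALL. AML had 40.0% against 20.5%, T-MPAL 52.9% against 28.2%, M-MPAL 56.3% against 41.5% and the empty control 63.6% against 32.6%. The coding share was the higher one in all 7 libraries, and the 2 intervals did not overlap in T-ALL and B-ALL. The shares were not adjusted for the base composition of coding and non-coding sequence. The B-ALL coding share rests on 8 of 14 SNVs, and 10 of the 14 were in dbSNP. All 9 synonymous private SNVs of AUL were C-to-T changes.

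Over all libraries 212 genes carried a member, 161 of them a single allele, 31 had 2 to 4 and 20 had 5 or more. A protein-changing allele was in 132 genes, a synonymous one in 100 and both kinds in 24. Mroh2a, a HEAT-repeat protein gene, had 112 alleles (56 protein-changing and 56 synonymous), Ugt1a1 31, Hjurp, a centromere histone chaperone, 26, A730008H23Rik, which overlaps Hjurp, 23, the mucin genes Muc4 and Muc6 21 and 20, and 7 Ugt1a genes, Ugt1a10, Ugt1a2, Ugt1a5 and Ugt1a6a among them, 17 each in exons they share. Private coding SNVs at different positions in at least 3 libraries were found in 3 genes, Mroh2a, Ugt1a1 and Muc4. Over all 7 libraries, olfactory receptor genes had 5 private alleles, all protein-changing, and vomeronasal receptor (Vmn) genes had 2, both synonymous. Among private SNVs of all genes, 50.8% were protein-changing over all 7 libraries and 73.3% outside T-ALL.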

How the data were processed

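The deposited tables hold samtools SNV calls annotated with ANNOVAR and FREEC copy number calls, per the file names and headers. Per the submitters' processing notes, the tools and builds named are BWA and mm10. dbSNP entries are those of the deposited column. Filters and caller versions are not stated in these sources. Each deposited SNV carries a Phred-scaled quality score of 20 to 228, and the deposited genotype field (unit "other") gives the read depth and alternative reads. The sample column of the AUL SNV table is headed Null, so AUL values rest on the sample recorded for that file. Planned depth was 30x, per the labels' protocols.

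An allele was a position and alternative base. Ratio intervals are Clopper-Pearson intervals of the protein-changing share. Where several transcripts are annotated, the exon and protein change are those of the transcript with the farthest position. Named genes are stringent stop-gains in 1 to 6 libraries, per library the 3 missense and 3 synonymous private stringent SNVs with the most alternative reads, the 10 genes with the most alleles (ties at the end taken by name), leukaemia list genes in 1 to 6 libraries, genes with private SNVs in 3 or more libraries or several in 1, and the top SNVs of the M-MPAL with T-MPAL and B-ALL with AML pairs. Olfr, Vmn, Zfp, Gm and Rik genes were left out of the per-library and pair choices, and 1 SNV that the rule names is not reported here. Members, lists and rules were chosen with earlier results of these data known. Of 13 samples, 6 integration-site samples were not used here. Alternatives changed depth, quality, repeats, neighbours, dbSNP, gains and sharing rules. Analyses ran in pandas 2.3.3 and scipy 1.17.1 (Python 3.11.15), figures in matplotlib 3.10.9, and the counting rules were tested on simulated data.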

Additional observations from a re-analysis of the deposited data

Results flagged for a closer look

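Private SNVs also lay in annotation classes that the coding comparisons do not use. Of 3179 private SNVs in T-ALL, 108 lay in UTRs and 35 in exons of non-coding RNAs. The empty control had 15 and 1 of 1399. AUL had 40 of 6055 private SNVs in UTRs, a lower share than the 15 of 1399 in the empty control. These are counts of single libraries with no replicate check.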

How the results depend on the processing

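Ratios below are protein-changing over synonymous SNVs. Of the ratios recomputed under an alternative, 282 lay inside the interval of the ratio as reported, 41 lay outside it, and 1 more crossed 1 although its interval as reported did not reach 1. Ratios whose interval as reported held 1 also crossed it, among them several given here. With segmental duplications counted, the ratio over all coding SNVs was 1.28 in T-ALL, 1.97 in AUL, 1.81 in B-ALL, 1.71 in AML, 1.87 in T-MPAL, 1.81 in M-MPAL and 1.90 in the empty control, and 2.37 for alleles in 6 libraries. With no neighbour within 100 bases it was 0.923 in B-ALL and 0.550 in T-ALL, 1.61 for alleles in 1 library and 0.815 for those in all 7. Without dbSNP entries it was 0.587 in T-ALL, 1.93 in AUL, 2.00 in T-MPAL and 1.78 in M-MPAL, 1.75 for alleles in 2 libraries and 7 for those in 5. Outside gains of any table it was 0.769 in B-ALL, 0.404 in T-ALL and 0.789 in AML, 0.5 for alleles in 3 libraries and 0.750 for those in 7, and outside gains of all 6 tables, chosen after seeing the data, 0.459 in T-ALL and 0.652 for alleles in 7. For alleles in 1 library it was 1.64 at a quality of at least 100, 1.69 for stringent calls and 1.51 with 1 SNV per gene, which gave 0.424 for private SNVs of T-ALL. Leaving out each library in turn gave 0.767 (without AUL) to 2.24 (without T-ALL) for alleles in 1 library.

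Stringent calls without neighbours or dbSNP entries, also chosen after seeing the data, turned the private T-ALL ratio to 1.67. They gave 1.27 in T-ALL, 2.54 in AUL, 3 in B-ALL, 3.33 in AML, 3.25 in T-MPAL and 3.13 in M-MPAL when all coding SNVs were counted, and 3.50, 2.17, 0 and 2.00 for alleles in 1, 2, 3 and 7 libraries. The cause was not tested, and few SNVs remained. A setting that left no synonymous SNV gave no ratio, as for stringent private SNVs of B-ALL, AML and the empty control.

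Single libraries and small private counts limit every comparison, and the depth per site leaves wide intervals on each read share. The callers' filters are unknown. No paired analysis was possible because each group has 1 library and no test was made.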
